A study of Mus musculus with 2 samples.

Results

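Prdm1, Prdm14, Tfap2c, Dppa2, Dppa4, Dppa3 and Dppa5a are 7 mouse genes known from primordial germ cells and from developmental pluripotency, out of 21887 protein-coding genes of the annotation. They were chosen by name, and their open chromatin was described as every ATAC-seq peak in the gene body or within 50 kb of it that overlapped a peak of the other library by at least 1 bp. This gave 69 shared regions, of 83732 in the genome, each made of a replicate 1 peak and its best overlapping partner in replicate 2. Counted gene by gene they make 75, because 6 lie near both Dppa2 and Dppa4, which are neighbours on chromosome 16.

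Both libraries came from GSCs, as the labels abbreviate this cell type of the male germline, with the genotype Stag3 KO. Stag3 encodes a cohesin subunit. The cells also carried Acrosin-EGFP and beta-Actin-EGFP (AAG), and AAG-positive viable cells were sorted, 50000 per transposase reaction. The labels give no age and no number of knockout clones, and nothing in them says that the replicates were grown separately, so their differences may be technical only. The wild type named in the study's design was not analysed here, so no value below measures an effect of Stag3 loss and no test between groups was made.

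ATAC-seq inserts adapters into accessible DNA. The authors' peak caller gave each peak a fold enrichment at its summit over the local background, and the whole number of sequence tags behind it was recovered from that fold and its p-value. The lists held 107331 peaks in replicate 1 and 98986 in replicate 2, with a median fold of 8.78 and 8.73 and a median of 40 and 41 tags; paired values are for replicate 1 and then replicate 2 throughout. At Stag3 itself the gene-end region on chromosome 5 had a fold of 6.27 and 6.72, and peak positions say nothing of the deleted part. A shared region within 1000 bp of a gene end was present at 18 of 18 spermatogonial marker genes, 4 of 6 pluripotent cell markers (none at Pou5f1 or Esrrb), 5 of 7 Sertoli cell markers and 5 of 10 feeder or fibroblast markers, against 65.8% of all protein-coding genes. In such bulk data, fewer cells with an open site and less opening per cell cannot be told apart.

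In mouse embryos, BMP signalling induces a few epiblast cells to become primordial germ cells, the precursors of sperm and eggs. The transcription factors PRDM1 (also BLIMP1), PRDM14 and TFAP2C form the core of that programme: they repress somatic genes, restore the pluripotency network and start the epigenetic reprogramming of the germ line. The developmental pluripotency associated (Dppa) genes are read out in early embryos, pluripotent stem cells and germ cells. DPPA2 and DPPA4 are SAP-domain proteins that bind each other, DPPA3 (also STELLA) is a classical marker of primordial germ cells and a maternal factor that counteracts UHRF1, and DPPA5A is a KH-domain protein that binds RNA.

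The RefSeq table of start windows (GRCm38.p6, 250 bases before to 50 after a listed start) held 1 of the 7 genes, Prdm1, and 3 coding neighbours whose starts lay in regions near Dppa3 and Dppa5a. The Prdm1 window and those of Apobec1 and Ddx43 are shown: Prdm1 as the 1 member in the table, Apobec1 because its start lies under the strongest region near Dppa3, and Ddx43 because its start lies under the strongest region near Dppa5a outside the gene itself. The window of Ooep, the other neighbour, had weak peaks and is not printed. All are printed 5′ to 3′ on the strand of the gene, with CpG dinucleotides in capitals. The Prdm1 window is chr10:44458699-44458998 on the minus strand, the Apobec1 window is chr6:122602395-122602694 on the minus strand, and the Ddx43 window is chr9:78395527-78395826 on the plus strand.
Prdm1: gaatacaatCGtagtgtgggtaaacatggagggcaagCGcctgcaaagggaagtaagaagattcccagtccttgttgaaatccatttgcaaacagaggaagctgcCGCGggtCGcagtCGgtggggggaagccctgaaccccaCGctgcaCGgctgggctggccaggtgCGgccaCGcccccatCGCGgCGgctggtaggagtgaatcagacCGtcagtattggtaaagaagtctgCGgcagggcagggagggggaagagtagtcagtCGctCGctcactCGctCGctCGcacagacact
Apobec1: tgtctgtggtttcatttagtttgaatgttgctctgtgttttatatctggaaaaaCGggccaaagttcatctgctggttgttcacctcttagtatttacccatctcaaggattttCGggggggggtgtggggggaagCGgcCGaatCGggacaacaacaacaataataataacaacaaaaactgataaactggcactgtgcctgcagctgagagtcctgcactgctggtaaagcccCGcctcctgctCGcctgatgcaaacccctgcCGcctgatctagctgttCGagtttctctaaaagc
Ddx43: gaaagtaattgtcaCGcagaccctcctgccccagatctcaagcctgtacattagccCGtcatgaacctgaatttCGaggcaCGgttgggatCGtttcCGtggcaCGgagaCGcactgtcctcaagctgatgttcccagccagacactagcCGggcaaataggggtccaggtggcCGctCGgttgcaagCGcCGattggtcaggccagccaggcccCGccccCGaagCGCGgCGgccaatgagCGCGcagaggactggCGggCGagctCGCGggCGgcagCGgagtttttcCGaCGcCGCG
The Prdm1 window held 20 CpGs, with an observed over expected ratio of 0.767, higher than in 76.4% of the 32851 windows of the table. Apobec1 had 9 CpGs and a ratio of 0.514, Ddx43 had 30 CpGs and a ratio of 0.977, and Ooep had 15 CpGs and a ratio of 0.602. All of them exceeded the median ratio of all windows, which was 0.384. Windows that overlapped a shared region had a median ratio of 0.755, and those that did not had 0.203.

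Short motifs were searched in these windows on both strands as plain letters. Neither the Prdm1 window nor the Apobec1 window held any of the 14 motifs, among them GAAAGTGAA for PRDM1 itself (in 0.581% of all windows), GGTCTCTAA for PRDM14 (0.256%) and GCCNNNGGC for TFAP2 (16.6%). The other letters searched were TTCCCGCC (2.19%), TTTCGCGC (0.323%), CACGTG (7.15%), CCGGAAG (8.86%), TGACGTCA (1.79%), ATTTGCAT (1.74%), AGGGGGC (10.6%), AGATGGC (6.40%) and ACATTGT (2.97%). The Ddx43 window held the GC box GGGCGG 2 times, at bases 215 to 220 on the opposite strand and 271 to 276 on the printed one, and GATTGG, an inverted CCAAT box, at bases 193 to 198. The Ooep window held GGGCGG once, at bases 232 to 237. GGGCGG was present in 35.7% of all windows and GATTGG in 16.1%. No match says only that these letters are not in this window.

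**Figure D1:**
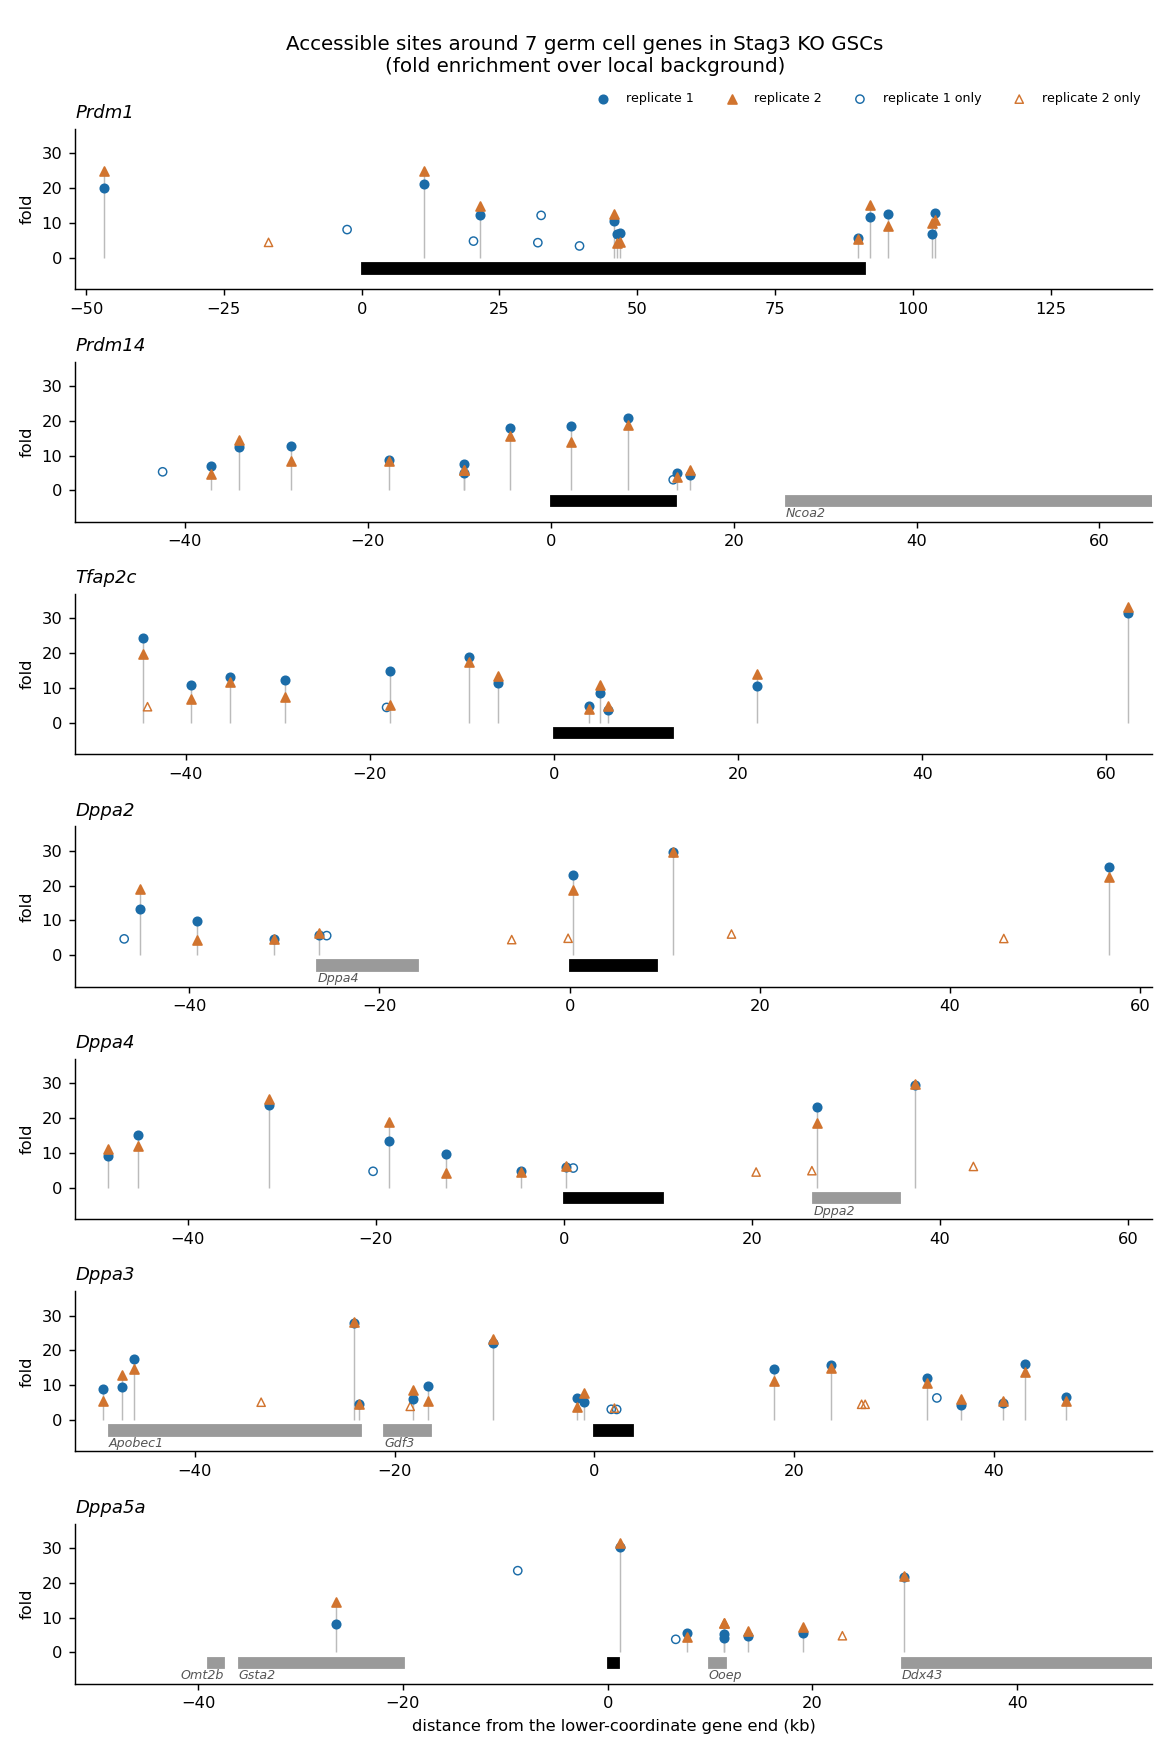
Fold enrichment over local background (vertical axis) of every peak in the body or within 50 kb of each gene, against distance from the lower-coordinate gene end in kb; filled symbols are shared regions, open symbols are peaks of 1 library, the black bar is the gene and grey bars are neighbouring protein-coding genes. Shared regions reach 33.3 beyond the higher end of Tfap2c and 31.3 at Dppa5a, the body of Dppa3 holds open symbols only, and Dppa3 has the most shared regions, 17.

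Prdm1 had 11 shared regions, 6 of them in its 91.4 kb gene body (chr10:44437174-44528558). PRDM1 is a zinc-finger repressor that keeps somatic genes off in nascent germ cells. Its strongest region lay inside the gene at chr10:44448153-44448636, with a fold of 21.3 and 25.0 (23.2 ± 2.61, mean ± SD, n = 2) from 80 and 86 tags. A region 46.5 kb below the gene, on the side of lower coordinates, was nearly as strong at 20.2 and 25.0, from 79 and 96 tags. Both stood on a low background of under 3 tags, and in both libraries they ranked above the start and the gene end.

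The start listed for Prdm1 lay inside the gene model, and the region over it, chr10:44458432-44458975, had a fold of 12.3 and 14.9 (94 and 113 tags). Its summits were 26 and 55 bp before the listed start, and it overlapped 277 bp of the window printed above. Among protein-coding genes in the table, 61.0% had a shared region over a listed start window. At the higher-coordinate end of the gene model, 680 bp outside it, a second region had 157 and 168 tags and a fold of 11.9 and 15.3 (13.6 ± 2.40, n = 2). The 2 sites had nearly the same fold, while the second had more tags on a higher background (12.3 and 10.1 tags, against 6.72 and 6.64 at the listed start). Beyond that end the regions continued at 3.79 kb (12.7 and 9.18), 11.9 kb (6.82 and 10.1) and 12.4 kb (13.0 and 10.9). From there to 54.3 kb above the gene no shared region was found.

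Within the body, a group of 3 shared regions around chr10:44482772-44484163 had folds of 10.7 and 12.6, 6.91 and 4.35, and 7.26 and 4.57. The last of the 6 body regions lay close inside the higher end, at chr10:44526963-44527471, with 5.74 and 5.37. Prdm1 also had 5 peaks of replicate 1 alone and 1 of replicate 2 alone.

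Prdm14 had 11 shared regions, 3 in its 13.7 kb body (chr1:13113428-13127163), 7 below it and 1 above. PRDM14 is a PR-domain protein that represses de novo DNA methyltransferase and differentiation genes in germ cells and embryonic stem cells. Its strongest region was in the body at chr1:13121688-13122010, with 215 and 150 tags and a fold of 20.8 and 18.7 (19.7 ± 1.5, n = 2). A second body region at chr1:13115475-13115882 had 18.5 and 14.0, and one 4.17 kb below the gene had 18.0 and 15.7. The gene end did not share that strength: the region at the higher end, chr1:13127041-13127356, had only 43 and 30 tags and a fold of 4.86 and 3.91 (4.39 ± 0.666, n = 2). That was lower than the best gene-end region of all but 1.35% of the protein-coding genes that had one.

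Farther below Prdm14, regions lay at 33.9 kb (12.5 and 14.5), 28.1 kb (12.6 and 8.32), 17.6 kb (8.78 and 8.32) and 36.8 kb (7.02 and 4.74). Near the end of the long noncoding RNA gene Gm39592, 8.99 kb below, 2 replicate 1 peaks (4.88 and 7.66) met a single replicate 2 peak (5.72), which makes 2 of the 69 regions share a partner. The side above was almost empty: after a region at 1.32 kb (4.55 and 5.93), the next shared one lay 233 kb above the gene.

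Tfap2c had 12 shared regions, 3 in its 12.9 kb body (chr2:172545678-172558622), and was the only 1 of the 7 genes without a shared region within 1000 bp of either gene end. TFAP2C is an AP-2 transcription factor that acts downstream of PRDM1 in germ cell specification. The body regions were weak to moderate, with 4.79 and 3.99 at chr2:172549360-172549637, 8.43 and 10.8 at chr2:172550378-172550898, and 3.58 and 4.78 at chr2:172551235-172551866. No start of Tfap2c was listed, so whether any of these 3 lay at a start inside the gene model is not known. Their local background was high, between 11.6 and 14.3 tags in both libraries. The middle one had 113 and 164 tags, so its modest fold came with more tags than most regions of the 7 genes.

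Tfap2c also had the strongest region of all 69, near the edge of the window. It lay 49.2 kb above the gene at chr2:172607792-172608349, close to an end of the long noncoding RNA gene Gm36038, with 284 and 339 tags and a fold of 31.5 and 33.3 (32.4 ± 1.28, n = 2). Among protein-coding genes with any region in reach, it exceeded the strongest region of 92.9%. Below the gene, a region at 44.3 kb had 24.4 and 19.7, one at 9.01 kb had 18.9 and 17.6, and one at 5.86 kb had 11.5 and 13.4. The nearest region outside the limit, 55.2 kb above the gene, had 9.89 and 10.8, so the 50 kb limit fell between a very strong and an average region. Within 25 kb the strongest Tfap2c region was the one at 9.01 kb, with a mean fold of 18.2.

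Dppa2 (chr16:48310274-48319513) and Dppa4 (chr16:48283735-48294292) lie side by side with 16.0 kb between them. Dppa2 had a region at its lower end, facing Dppa4, at chr16:48310325-48311021 with 166 and 164 tags and a fold of 23.1 and 18.7 (20.9 ± 3.11, n = 2). Its higher end was followed, 1295 bp outside the gene, by the strongest region of the pair, chr16:48320808-48321387, with 231 and 252 tags and a fold of 29.6 and 29.7 (29.6 ± 0.0728, n = 2). Dppa2 therefore had a strong site close to each of its ends in both libraries.

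Dppa4 differed at its own ends. Its lower end had a weak region at chr16:48283621-48284198, with 31 and 34 tags and a fold of 5.93 and 6.25 (6.09 ± 0.229, n = 2), and the summits of the 2 libraries were 239 bp apart. Its higher end, facing Dppa2, had no shared region, nor had the gap between the genes. The peaks in that gap were 2 of replicate 2 alone, with folds of 4.48 and 4.86. DPPA2 and DPPA4 act as a pair in embryonic stem cells, which sets no expectation for the fold at their gene ends. The gene-end fold of Dppa2 was above that of Dppa4 in both libraries. Without strand these ends cannot be called starts, and no test can be made with 2 libraries of 1 group.

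Below Dppa4 the regions were strongest at 31.2 kb and weaker on either side. They had 4.79 and 4.56 at 4.38 kb, 9.72 and 4.23 at 12.4 kb, 13.4 and 18.9 at 18.4 kb, and 23.8 and 25.4 at 31.2 kb. The last of these, chr16:48252200-48252536, lies outside the window of Dppa2 (57.7 kb away) and was counted for Dppa4 only. Farther out stood 15.0 and 11.9 at 45.1 kb and 9.07 and 11.1 at 48.4 kb, and the next shared region lay 424.6 kb below Dppa4. On the other side, a region 47.3 kb above Dppa2 had 25.4 and 22.6 from 80 and 74 tags, on a background of 2.19 and 2.32 tags.

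Dppa3 (chr6:122626424-122630271) had 17 shared regions, the most of the 7 genes, and none in its 3.85 kb body. Below the gene stood 10 and above it 7. The body held 3 peaks, 2 of replicate 1 with folds of 3.08 and 3.04 (22 tags each) and 1 of replicate 2 with 3.43 (26 tags); the gaps between neighbours were 99 and 12 bp, so none overlapped. The nearest region, 804 bp below the lower end at chr6:122625241-122625620, had 37 and 61 tags and a fold of 5.19 and 7.87 (6.53 ± 1.89, n = 2). Another at 1.51 kb had 6.32 and 3.88. The gene itself was thus weakly marked in both libraries.

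The strong regions around Dppa3 lay farther out. One 9.84 kb below it at chr6:122616014-122616585, between Dppa3 and Gdf3, had 237 and 287 tags and a fold of 22.1 and 23.2. The strongest was at the start of Apobec1, 23.8 kb below Dppa3 at chr6:122602209-122602584, with 214 and 208 tags and a fold of 27.8 and 28.1 (28.0 ± 0.171, n = 2); Apobec1 encodes a cytidine deaminase that edits RNA. It overlapped 190 bp of the Apobec1 window printed above, with summits 54 and 39 bp after the listed start. In all, 4 of the 17 regions were within 1000 bp of an end of a neighbouring coding gene, 3 at Apobec1 and 1 at Gdf3 (9.66 and 5.45). Gdf3 encodes a growth factor of the TGF-beta family expressed in pluripotent cells.

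Above Dppa3 no coding gene lay within 50 kb, and the 7 regions had folds of 14.7 and 11.1 at 13.8 kb, near the pseudogene Gm8460, 15.7 and 14.9 at 19.7 kb, 12.1 and 10.7 at 29.4 kb, and 16.2 and 13.9 at 39.1 kb. The remaining 3 lay at 32.7, 36.8 and 43.2 kb and had folds between 4.42 and 6.70 in both libraries.

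Dppa5a is the shortest of the genes, 1.15 kb (chr9:78367052-78368199), and was the 1 member whose gene end was also its strongest region. That region, chr9:78368036-78368392 at the higher end, had 143 and 133 tags on a background of 3.76 and 3.28 tags, which gave a fold of 30.3 and 31.3 (30.8 ± 0.747, n = 2). It exceeded the best gene-end region of 97.3% of the protein-coding genes that had one. By fold it was the second highest of the 69 regions, after the Tfap2c region; by tags it was below the strongest regions of Dppa2, Dppa3, Prdm14 and Tfap2c in both libraries.

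Around Dppa5a, Ooep, a maternal-effect gene that also encodes a KH-domain protein, had 2 replicate 1 peaks (5.33 and 4.24) joined with 1 replicate 2 peak (8.40) at its end, from 25, 19 and 39 tags. Ddx43, which encodes a DEAD-box helicase of the germ line, had a region over its start 27.3 kb above Dppa5a, chr9:78395532-78396408, with 190 and 184 tags and a fold of 21.8 and 22.0. It covered 295 bp of the window printed above. The other regions above had folds of 4.30 to 7.36, and the 1 region below, 26.4 kb away in Gsta2, had 8.15 and 14.4.

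**Figure D2:**
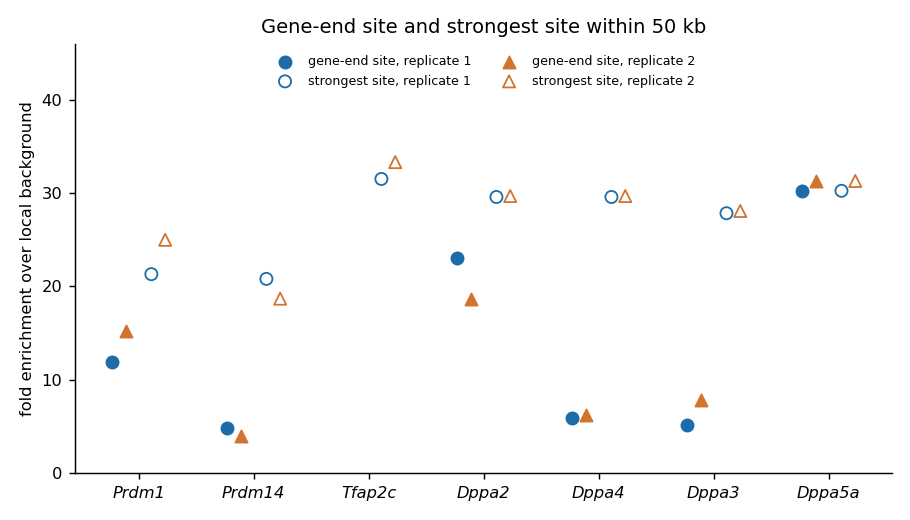
Fold enrichment over local background at the best shared region within 1000 bp of a gene end (filled) and at the strongest shared region of the window (open) for each gene in both libraries. Gene-end values run between 3.91 at Prdm14 and 31.3 at Dppa5a, Tfap2c has none, and the strongest regions lie between 18.7 and 33.3.

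Side by side, the gene-end regions ordered the genes as Dppa5a (mean fold 30.8), Dppa2 (20.9), Prdm1 (13.6), Dppa3 (6.53), Dppa4 (6.09) and Prdm14 (4.39). Neighbours in that order did not overlap in their library folds except Dppa3 and Dppa4 (5.19 and 7.87, against 5.93 and 6.25). The first 2 genes exceeded the median best gene-end fold of protein-coding genes, 15.5, and the other 4 were below it. Tags gave another order: Dppa2 (166 and 164) and Prdm1 (157 and 168) were above Dppa5a (143 and 133) in both libraries. Local background was 3.76 and 3.28 tags at Dppa5a, 6.24 and 7.84 at Dppa2, and 12.3 and 10.1 at Prdm1. The tags of Dppa4 (31 and 34) and Prdm14 (43 and 30) overlapped. A gene-end region was present at 6 of the 7 genes, 85.7% (95% Wilson interval 48.7 to 97.4%, counting error only), against 65.8% of all protein-coding genes (65.1 to 66.4%). With 7 genes the interval holds the background share, so the count is not a result about these genes.

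The strongest region of a window was the same one in both libraries for each of the 7 genes, but at Prdm1 it was tied in replicate 2. There the region 46.5 kb below the gene had the same fold of 25.0, from 96 tags against 86. Mean folds were 32.4 for Tfap2c, 30.8 for Dppa5a, 29.6 for Dppa2 and Dppa4, which share theirs, 28.0 for Dppa3, 23.2 for Prdm1 and 19.7 for Prdm14. The percentile among the strongest regions of protein-coding genes was 92.9 for Tfap2c, 86.2 for Dppa5a, 80.2 for Dppa2 and Dppa4, 70.7 for Dppa3, 38.2 for Prdm1 and 22.8 for Prdm14. Of the germ cell factors, Prdm1 and Prdm14 had strongest regions below the median gene, and Tfap2c had its own above it, as had the Dppa genes. The Tfap2c region lay 49.2 kb from the gene, that of Dppa4 beside Dppa2, and that of Dppa3 at the start of Apobec1. Within 25 kb the strongest mean fold was 18.2 for Tfap2c and 20.9 for Dppa4, both below Prdm1, and was unchanged for the other genes.

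**Figure D3:**
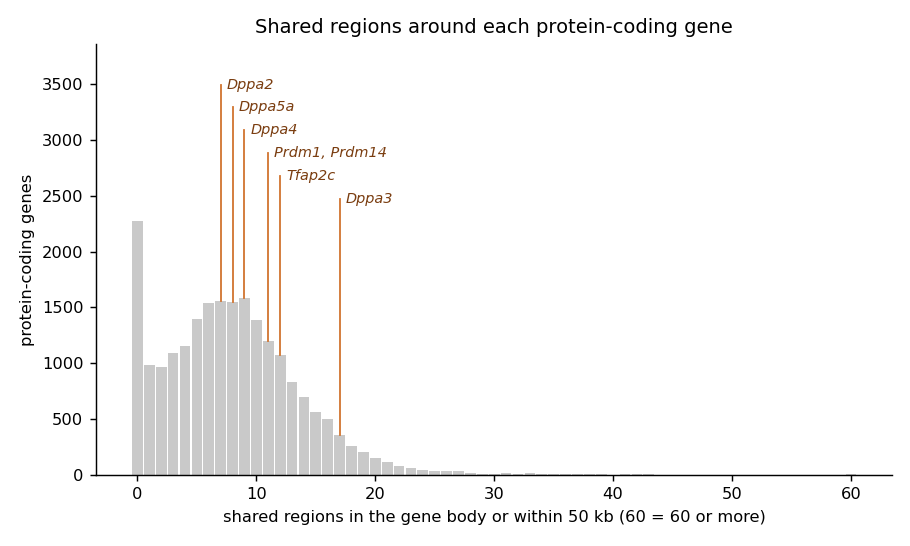
Number of protein-coding genes (vertical axis) by the number of shared regions in the gene body or within 50 kb, with the 7 genes marked; the last bar holds 60 or more. The 7 genes lie between 7 (Dppa2) and 17 (Dppa3), and 2272 genes have 0.

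All 7 genes had at least 1 shared region in reach, as had 89.6% of protein-coding genes. Counts were 17 for Dppa3, 12 for Tfap2c, 11 each for Prdm1 and Prdm14, 9 for Dppa4, 8 for Dppa5a and 7 for Dppa2, with a median of 11 against 7 for all protein-coding genes (quartiles 4 and 11). The low place of Dppa2 differed between the libraries. Taking all peaks of replicate 1, shared or not, it was again lowest, with 9, next to Dppa5a with 10. Taking all peaks of replicate 2 it had 12, above Prdm14 with 10 and Dppa5a with 8. Because long genes reach farther, counts were also expressed per 100 kb of gene and flanks. On that scale Dppa3 had 16.4, more than 98.3% of protein-coding genes, and Tfap2c 10.6, more than 86.7%. Prdm14 had 9.67, Dppa4 8.14, Dppa5a 7.91, Dppa2 6.41 and Prdm1 5.75, against a median of 5.35 for all protein-coding genes. Prdm1, with the longest gene body, was closest to that median.

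As a group the 69 regions resembled shared regions of the genome in strength. Their mean fold had a median of 10.5 and ran from 4.18 to 32.4, against a median of 10.6 for all shared regions. Both peaks were above their library's median fold in 34 of the 69 (49.3%), against 51.6% of all shared regions, and both were in the top 10% in 5 (7.25%), against 9.52%. The 15 regions in gene bodies had a median fold of 9.63, the 6 at an end of 1 of the 7 genes, some of them also in a body, 10.0, the 7 at the end of another coding gene 7.17, and the 45 elsewhere 11.2. The local background of the 69 was higher, at a median of 4.60 tags in each library, against 3.64 and 3.60 for all shared regions. No class of position stood apart, since the ranges overlapped widely.

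**Figure D4:**
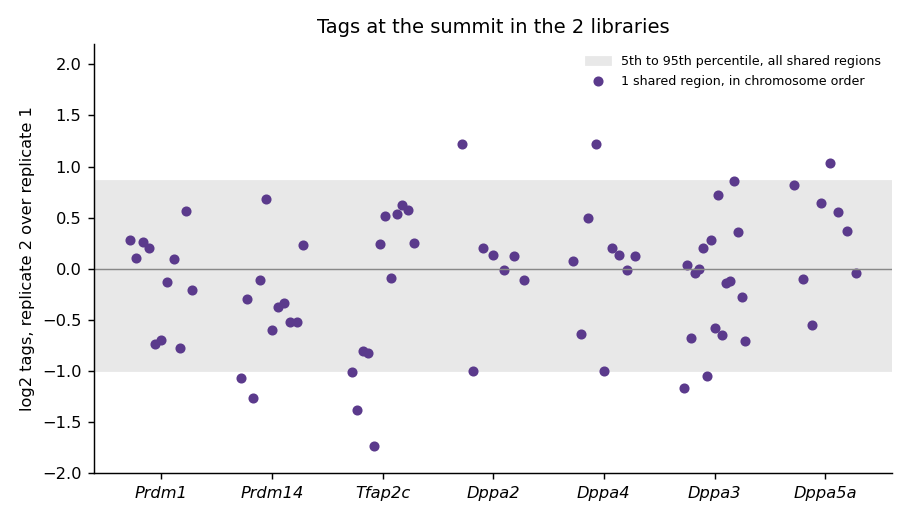
Log2 ratio of summit tags, replicate 2 over replicate 1, for each shared region by gene, in chromosome order within a gene; the grey band is the 5th to 95th percentile of all shared regions, -1.0 to 0.86. Most regions lie in the band, the regions farthest below Tfap2c lie at or under -0.81, and 1 region near Dppa2 and Dppa4 lies at 1.22.

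Tags of the 2 libraries were balanced over the 69 regions as a whole. Replicate 1 had 5510 tags and replicate 2 had 5284, a ratio of 0.959, where a replicate 2 peak that was the partner of 2 regions counts in both. Replicate 1 was higher at 37 regions, replicate 2 at 31, and 1 was equal. The summits of the 2 libraries were a median of 21 bp apart, against 16 bp for all shared regions. Peaks in the windows were shared in 82.1% of 84 cases in replicate 1 and 85.2% of 81 in replicate 2, against 78.0% and 84.9% in the whole lists.

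The balance differed along Tfap2c. At the 5 regions over 17 kb below the gene, replicate 1 had 396 tags and replicate 2 had 187, a ratio of 0.472, and replicate 1 was higher in 5 of 5. The 1 at 17.5 kb had 50 and 15 tags, the lowest ratio of the 69. At the other 7 regions replicate 1 had 766 and replicate 2 had 971, a ratio of 1.27, with replicate 2 higher in 6 of 7. This division of the Tfap2c regions was made after their values were seen. Local background mostly moved the same way, for example 6.58 and 3.68 tags at the 44.3 kb region and 8.04 and 9.20 at the 49.2 kb region above the gene. It moved little at the 17.5 kb region (2.40 and 2.13 tags), where the fold was 15.0 and 5.12, and at the 28.9 kb region (2.28 and 2.13 tags). The part of background in the difference was not tested.

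Prdm14 had 750 tags in replicate 1 and 564 in replicate 2 over its 11 regions, with replicate 1 higher at 9. In the Dppa2 and Dppa4 locus, the region 18.4 kb below Dppa4 had 52 and 121 tags, a log2 ratio of 1.22 that was higher than at 98.0% of all shared regions. Its fold, 13.4 and 18.9, differed less, since the local background was 2.96 and 5.46 tags.

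Genes known to act with these 7, or related to them, were examined at their ends in the same way. Of 32 other germ cell specification genes, 31 had a gene-end region (96.9%, Wilson interval 84.3 to 99.5%), against 65.8% of all protein-coding genes; these include the BMP ligands, receptors and SMADs that induce Prdm1 and Prdm14. The median fold was 10.2 and 10.1, and the highest were Prdm9 (25.8 and 30.8), which directs meiotic recombination, Cbfa2t2 (26.1 and 27.4), a partner of PRDM14, Dnd1 (26.2 and 24.5), an RNA-binding germ cell survival factor, and Prdm4 (23.5 and 24.2). Ifitm3, a surface marker of early germ cells, had a peak in replicate 2 only. Tfap2a (4.17 and 5.10) and Tfap2b (3.11 and 4.90), named as paralogs of Tfap2c after their values were seen, had weak gene-end regions. Tfap2c had none at the ends of its gene model, and a start inside that model would be missed.

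Of 20 pluripotency network genes, 17 had one (85.0%, 64.0 to 94.8%), led by Klf5 (23.9 and 26.3), Tfcp2l1 (21.4 and 21.4), Sall4 (20.0 and 22.4) and Zfp42 (19.1 and 17.8). Esrrb, Nr5a2 and Pou5f1 had no peak at an end in either library. Of 18 maternal-effect genes and genes tied to the Dppa proteins, 8 had one (44.4%, 24.6 to 66.3%). The highest were Tle6 (21.6 and 22.0) and Nlrp5 (21.8 and 17.7), of the subcortical maternal complex, Uhrf1 (19.2 and 18.7), which recruits the maintenance methyltransferase, and Khdc1a (10.3 and 7.68). Beside the 65.8% of all protein-coding genes, both intervals hold that share, so neither count is a result about its list. Dnmt1, Khdc1b, Khdc3 and Padi6 were among the 10 without one, and of these Dnmt1 had a peak in replicate 2 only. Sall4 and Lin28a stand in both the germ cell and the pluripotency list, and lists were described, not tested.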

How the data were processed

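ATAC-seq peak lists of 2 Stag3 KO GSC libraries, 1 list per library, were used. MACS2 2.1.1 is the peak caller among the tools in the submitters' processing notes, which also list deepTools 3.5.0, Bowtie2 2.3.4.1, bedtools 2.29.2, Trim Galore and Picard 2.18.23, on mm10 and GRCm38.p3. Settings, such as a read shift for the transposase or duplicate removal, are not given in the sources used here and can change which sites pass. Labels give 8 PCR cycles. For each peak the authors deposited a fold enrichment (the ratio to local background), p and q on the −log10 scale, and a score, 10 times −log10 q without its decimals, which is left out here.

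The files give no read depth. Whole tags were recovered from the fold, read as (tags + 1)/(background + 1), together with the Poisson p-value, and this worked for 100% of peaks in each library (relative tolerance 1e-05, 0.0001 on the −log10 scale); the recovery was checked on simulated peaks. Fold was compared as a value and as a percentile within its library. Wilson 95% intervals were given for numbers of genes and describe counting error alone, while the listed genes were chosen by name and not sampled. Tags were given no interval, since PCR copies among them would not be independent.

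Gene models came from the RefSeq table on GRCm38.p6, which has no strand. The planned site at the annotated start was therefore a shared region within 1000 bp of either gene end, which includes 3′ ends and misses starts inside a model. Below and above mean lower and higher coordinates. Sequences and listed starts came from the RefSeq start windows on GRCm38.p6. Named regions were each gene's end region and its 3 regions of highest mean percentile of fold, with the others given by value where they complete a locus; named list genes were the 4 highest and the first 4 alphabetically without a gene-end region. The 7 genes, the lists and these rules were chosen with earlier results of these data known. With 1 group of 2 libraries, values are descriptions with no test. Python 3.11.15, numpy 2.4.6, pandas 2.3.3, scipy 1.17.1 and matplotlib 3.10.9 were used. The alternatives were other windows, overlaps, q-value and fold minimums, gene-end distances, and each library alone.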

Additional observations from a re-analysis of the deposited data

Results flagged for a closer look

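Peaks present in a single library entered no count of shared regions above. Of them, 2 were at or above the median fold of their library while the other library had no peak within 9 kb. Both were of replicate 1 and exceeded the floor of 3 tags, as did every peak of both libraries, where the minimum was 9. In the Dppa5a window, a peak at chr9:78358050-78358499, 8.55 kb below the gene, had a fold of 23.48 from 92 tags on a background of 2.96, and the nearest replicate 2 peak was 9.54 kb away. Of the 9867 replicate 1 peaks at least as high, 24 (0.243%) had no partner in replicate 2. In the Prdm1 window, a peak inside the gene at chr10:44469577-44469882 had a fold of 12.23 from 38 tags on a background of 2.19, with the nearest replicate 2 peak 10.6 kb away. Of 37412 replicate 1 peaks at least as high, 690 (1.84%) had no partner. There was no control sample to set them against, and their source was not tested.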

How the results depend on the processing

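The number of shared regions around the 7 genes was 69, and it was 46 at 25 kb, 100 at 100 kb, 62 at an overlap of 50% of both peaks, 69 at a −log10 q of at least 5, and 81 to 84 in either library alone. Among the 50000 peaks of highest fold in each library it was 33, and genes with a gene-end region were then 3 in place of 6: Dppa5a, Dppa2 and Prdm1 kept theirs, and Prdm14, Dppa4 and Dppa3 lost theirs, as the alternative keeps only higher folds. Genes with a gene-end region were 5 at 50% overlap, without Dppa4 and Tfap2c, 4 within 500 bp, where Prdm1 and Dppa3 were lost as well as Tfap2c, 6 within 2500 bp, and 6 in either library alone. The share of all protein-coding genes was 61.7% within 500 bp and 72.4% within 2500 bp, against 65.8%. Leaving out regions at the ends of other coding genes, chosen after seeing the data, left 62. Counts per gene stayed within 1.5 times in 35 of 49 recomputed cases and moved in 14, and the lone library that moved one was replicate 2, with 12 peaks at Dppa2 in place of 7. The strongest regions, recomputed at 25 and 100 kb after seeing the data, were the same at 100 kb; at 25 kb that of Tfap2c had a mean fold of 18.2 in place of 32.4, and that of Dppa4 20.9 in place of 29.6, since the stronger regions lie outside that window. With 2 libraries, either one alone lies within 1 SD of their mean by construction, so those values say nothing about stability. No paired analysis was possible because both libraries form 1 group. Weak gene-end folds, such as 30 to 61 tags at Dppa3, Dppa4 and Prdm14, carry the most counting error. An absent peak is a site below the caller's threshold at an unknown depth, not closed chromatin.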
